A study of Mus musculus with 6 samples.

Results

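The actin-myosin contractile genes examined were the tropomyosins Tpm1, Tpm2, Tpm3 and Tpm4, the myosin light chain kinase Mylk, the regulatory myosin light chain Myl9, smooth muscle actin Acta2, the transgelins Tagln and Tagln2, and calponin Cnn1. All probes carrying 1 of these 10 gene names were taken, whatever their signal, which gave 17 of the 25697 probes on the array. Of the 10 genes, 8 had a probe (of 18138 gene names on the array), and Myl9 and Tagln2 had none of that name. Tpm2 and Mylk were chosen by a measured value, their low signal in EPC_acLDL compared with EPC, so that comparison is given for the members as a description, without p-values. The other 8 genes belong to the same families or the same apparatus.

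Gene expression was measured on Illumina MouseRef-8 bead arrays in 3 cell lines, with 2 arrays per line. All lines came from the lung of athymic nude mice, carry the label of endothelial progenitor cells, and were grown in the same endothelial medium with serum. EPC is the primary sorted line at passage 3 to 6, and EPC_acLDL (passage 3 to 6) holds the EPC cells that took up fluorescent acetylated LDL and were sorted and replated. EPC_Late is the EPC_acLDL line carried to high passage (16 to 20), so it differs from EPC by the acLDL sort and by passage, which cannot be told apart in that comparison. Each line is 1 sorted and cultured population, and it is not settled which of the arrays come from separate cultures, so the p-values measure the spread between these arrays, which may be technical. In each line, fewer cells that express a gene and less RNA per cell cannot be told apart.

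In the contractile apparatus, myosin II pulls on actin filaments, and tropomyosin lies along the filament and sets how far myosin can reach it. In smooth muscle and in non-muscle cells, contraction is switched on when Mylk, activated by calcium and calmodulin, phosphorylates the regulatory light chain of myosin, and it is switched off by myosin phosphatase, whose catalytic subunit is encoded by Ppp1cb. Many genes of the apparatus are transcribed under the serum response factor, Srf, and its actin-sensing cofactors, the MRTFs, which bind DNA sites called CArG boxes.

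The arrays had between 2177 and 2365 probes above background (detection p below 0.05, the share of negative control beads at least as bright) and median intensities of 304.6 to 358.7. A probe was tested when both arrays of at least 1 line were above background, which 2333 probes were. Of 28 probes for 18 endothelial genes, only 1, for the receptor Kdr, was above background, on all 6 arrays, and the defining markers Pecam1 and Cdh5 were not above background on any array. The labelled cell type was thus seen in 1 of these markers.

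Among the 17 contractile gene probes, 4 were above background on all 6 arrays, 1 each for Tpm2, Tpm3, Mylk and Acta2. A second Mylk probe was above background on 2 arrays, both of EPC, and a second Acta2 probe on 1, an EPC_acLDL array. The remaining 11 probes (64.7%) were above background on 0 arrays, against 88.8% of all probes on the array. These 11 were the only probes of Tpm1, Tpm4, Tagln (also called SM22 alpha, an actin-binding protein) and Cnn1 (an actin-binding inhibitor of the myosin ATPase), 2 further probes of Tpm2, 3 of Tpm3 and 2 of Acta2. Their intensities lay between 240.1 and 423.0 with detection p-values of 0.0589 to 0.987, so these data give no measured level for those 4 genes in any of the lines. In all, 5 probes of 4 genes were tested (29.4% of the members' probes, against 9.08% of all probes).

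**Figure D1:**
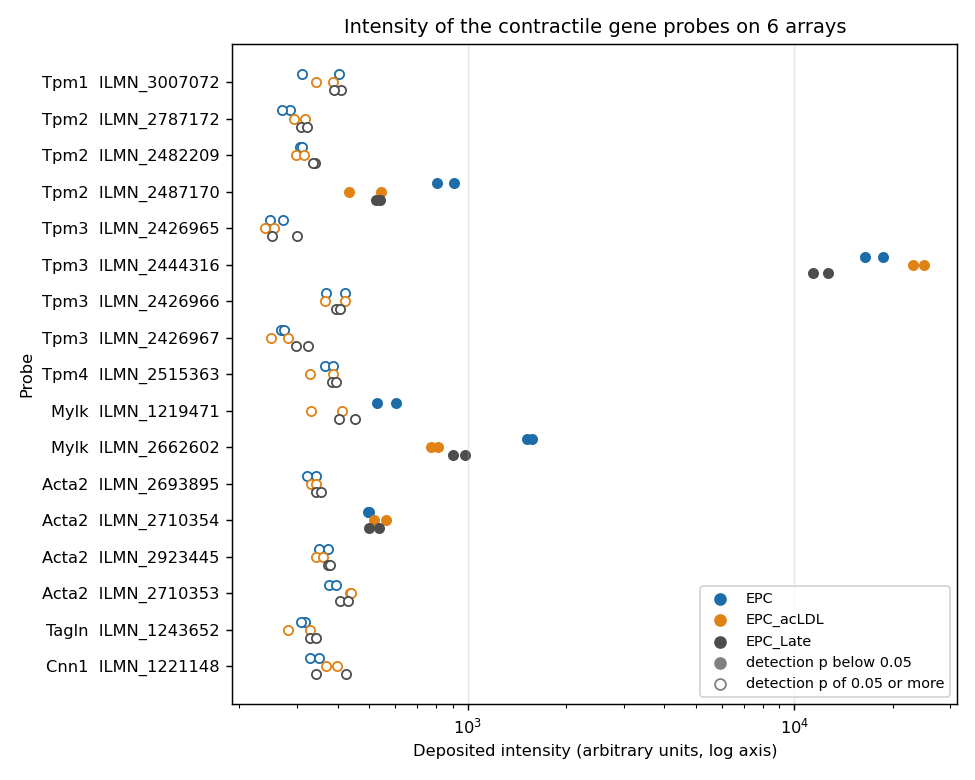
Deposited intensity (log axis) of the 17 contractile gene probes, 1 row per probe, with 2 arrays for each of EPC, EPC_acLDL and EPC_Late. Filled points have a detection p below 0.05; 4 probes are filled on all 6 arrays, and Tpm2 and the 2 Mylk probes have their 2 EPC arrays to the right of the others.

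Tpm2, the tropomyosin also known as beta-tropomyosin, gave its brightest signal in EPC. Its measured probe (ILMN_2487170) read 803.0 and 908.5 in EPC, 434.6 and 541.3 in EPC_acLDL, and 525.4 and 540.2 in EPC_Late. Both EPC arrays were above all 4 arrays of the other lines, and the EPC_Late arrays lay between the 2 EPC_acLDL arrays. On the normalized log2 scale the means were 9.15 ± 0.19 (SD, n = 2) in EPC, 7.14 ± 0.45 in EPC_acLDL and 7.47 ± 0.00 in EPC_Late; the last SD is small because quantile normalization gave both arrays nearly the same value. The spread of EPC_acLDL was the widest of the 3 lines. The detection p of this probe reached 0.0464 on the dimmest array, just inside the limit of 0.05.

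Mylk, the kinase that phosphorylates the regulatory myosin light chain, was brightest in EPC on both of its probes. The brighter probe (ILMN_2662602) read 1517 and 1572 in EPC, 769.6 and 812.2 in EPC_acLDL, and 903.6 and 982.8 in EPC_Late, and no line overlapped another. Its log2 means were 10.34 ± 0.10 in EPC, 8.68 ± 0.05 in EPC_acLDL and 9.19 ± 0.09 in EPC_Late (SD, n = 2 each). The dimmer probe (ILMN_1219471) read 528.9 and 603.8 in EPC, 331.5 and 412.2 in EPC_acLDL, and 403.6 and 452.5 in EPC_Late. That probe was above background in EPC alone, so the other lines have only an upper bound there and no order between them was measured.

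Between EPC_acLDL and EPC, the comparison from which Tpm2 and Mylk were chosen, the Tpm2 difference was -2.02 on the log2 scale, the lowest of all 2333 probes tested. The brighter Mylk probe stood at -1.66, rank 6 from the lowest. The dimmer Mylk probe had a bound of at least 2.36-fold lower, which depends on the background correction (a difference of -0.66 without one). Of the 5 member probes, these 3 passed the adjusted threshold as lower in EPC_acLDL, against 1.37% of all probes tested, and 0 as higher, against 1.93%. The lines did not overlap on the normalized scale for 4 of the 5, against 50.8% of all probes. Nothing is read from these counts, since they restate the choice.

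Because Srf drives many contractile genes, the 250 bases before the start of Tpm2 and Mylk, 1 start per gene, are shown with those of Acta2, the classical CArG box gene, and of Srf itself. The sequences are from RefSeq (GRCm38.p6), 5′ to 3′ on the strand of the gene, which is the minus strand for Tpm2, Acta2 and Srf and the plus strand for Mylk. Capitals mark CArG boxes, either exact or with 1 core base that is G or C.
Tpm2 promoter, chr4:43523555-43523804: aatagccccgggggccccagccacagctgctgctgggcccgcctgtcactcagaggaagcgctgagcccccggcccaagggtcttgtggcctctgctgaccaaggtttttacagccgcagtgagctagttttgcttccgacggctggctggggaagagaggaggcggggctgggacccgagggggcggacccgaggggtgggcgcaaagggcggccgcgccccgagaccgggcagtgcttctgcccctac
Mylk promoter, chr16:34784700-34784949: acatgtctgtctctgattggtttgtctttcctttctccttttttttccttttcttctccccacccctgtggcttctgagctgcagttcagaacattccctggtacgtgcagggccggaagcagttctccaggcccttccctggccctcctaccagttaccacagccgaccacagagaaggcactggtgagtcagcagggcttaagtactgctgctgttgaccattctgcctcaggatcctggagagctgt
Acta2 promoter, chr19:34255374-34255623: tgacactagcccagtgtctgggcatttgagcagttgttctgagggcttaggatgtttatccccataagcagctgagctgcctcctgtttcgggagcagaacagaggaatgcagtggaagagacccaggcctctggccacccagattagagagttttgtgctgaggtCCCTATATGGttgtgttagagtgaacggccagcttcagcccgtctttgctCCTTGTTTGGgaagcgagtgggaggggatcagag
Srf promoter, chr17:46556163-46556412: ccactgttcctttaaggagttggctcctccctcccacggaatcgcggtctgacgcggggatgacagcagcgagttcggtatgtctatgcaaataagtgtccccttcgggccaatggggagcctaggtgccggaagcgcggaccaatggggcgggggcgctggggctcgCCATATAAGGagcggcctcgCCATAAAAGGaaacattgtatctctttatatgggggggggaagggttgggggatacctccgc
Neither the Tpm2 nor the Mylk stretch held a box on either strand. The Acta2 stretch held 2 boxes with 1 differing base, which begin 84 and 34 bases before the start, and the Srf stretch held 2 exact boxes, at 82 and 62 bases. Of 32851 mouse promoters in the same table, 1.47% held an exact box in this window and 8.59% a box with at most 1 differing base. Of the member genes, 9 had 10 promoters in the table, of which 1 (Myl9) held an exact box and 4 (Myl9, Acta2 and both of Tpm3) a box with at most 1 differing base. A match describes these letters and is not a measured binding site.

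The line carried to high passage, EPC_Late, was compared with EPC. For Tpm2 and Mylk this comparison uses the same EPC arrays on which both genes were chosen, so their values are given without p-values. Tpm2 was at -1.68 on the log2 scale in EPC_Late against EPC (SE 0.22), a 3.21-fold lower mean. The brighter Mylk probe was at -1.15 (SE 0.12), a 2.22-fold lower mean. Tpm3 and Acta2 did not pass the test. The dimmer Mylk probe passed the filter through EPC alone and so had to be lower elsewhere. Its signal in EPC_Late was at least 2.31-fold lower, given as a description, and its difference was -0.53 with no background correction, a smaller fold than that bound. On all 3 probes both EPC_Late arrays were below both EPC arrays.

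The count of 3 of 5 member probes lower in EPC_Late stood against 13.0% of all 2333 probes tested, and 0 of 5 higher against 10.9% (23.9% in either direction). The median difference of the 5 probes was -1.15, against 0.01 over all probes tested. The lines did not overlap on the normalized scale for 4 of the 5, against 58.0% of all probes. These figures are a description. They are not independent of the choice of Tpm2 and Mylk, because the EPC arrays are the same in both comparisons and EPC_Late comes from EPC_acLDL, and 1 of the 3 is the dimmer Mylk probe, which the filter kept through EPC alone. The methods' t-test, run on each probe alone, made after Benjamini-Hochberg adjustment 0 calls among the members (3 unadjusted calls), and with no background correction the Tpm2 difference shrank to -0.81.

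**Figure D2:**
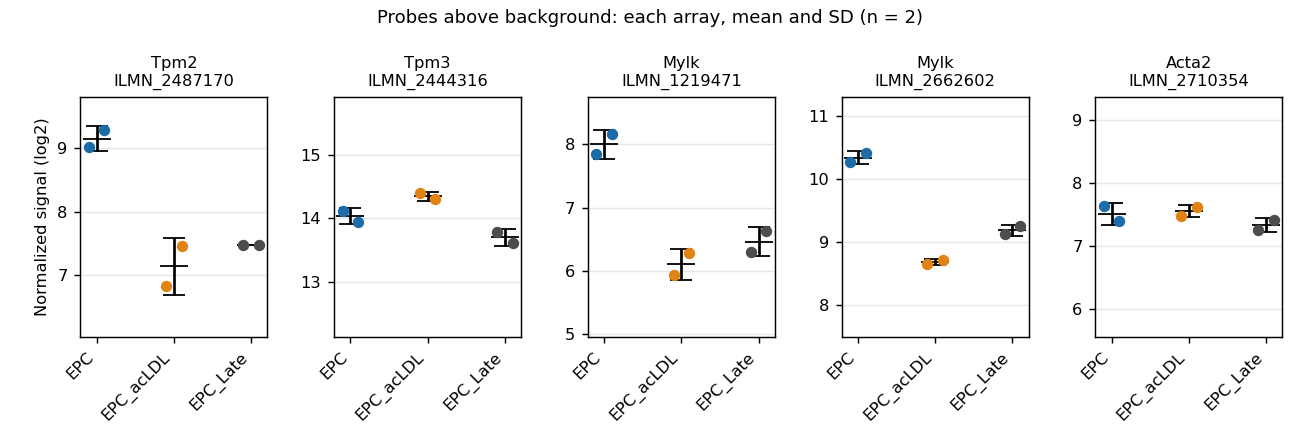
Normalized log2 signal of the 5 tested contractile gene probes in each line; points are arrays and black bars the mean and SD (n = 2), and each panel spans the same number of log2 units. Tpm2 and both Mylk probes are highest in EPC, Tpm3 is highest in EPC_acLDL, the Acta2 differences did not pass the test, and the dimmer Mylk probe is below background in EPC_acLDL and EPC_Late.

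Tpm3, a tropomyosin of slow muscle and of the cytoskeleton of most cells, had a different order of lines. Its measured probe (ILMN_2444316) read 18678.4 and 16421.8 in EPC, 25005.1 and 22994.4 in EPC_acLDL, and 12658.3 and 11358.3 in EPC_Late. EPC_acLDL was highest and EPC_Late lowest, with no overlap between lines. The log2 means were 14.04 ± 0.12, 14.35 ± 0.07 and 13.70 ± 0.13 (SD, n = 2). The EPC_acLDL mean was 0.32 above that of EPC. EPC_Late was at -0.34 against EPC (SE 0.13), which did not pass (limma adjusted p = 0.12) but did with no background correction, with a shift to the 75th percentile, with no normalization between arrays and with limma-trend (adjusted p = 0.013, 0.020, 0.027 and 0.0015).

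Acta2, the actin of smooth muscle and myofibroblasts, was dim in all lines. Its measured probe (ILMN_2710354) read 500.1 and 496.7 in EPC, 517.7 and 564.1 in EPC_acLDL, and 499.9 and 534.0 in EPC_Late. The EPC_Late arrays overlapped those of both other lines in intensity. The log2 difference between EPC_Late and EPC was -0.18 (limma, 95% confidence interval -0.51 to 0.16, adjusted p = 0.45), an interval that leaves room for a fall of 0.51. The smooth muscle and pericyte list had 5 of 19 probes above background on at least 1 array, of which 3 were tested (Acta2, Des and Cspg4) and 0 passed in limma, against 3.30% (EPC_acLDL against EPC), 23.9% (EPC_Late against EPC) and 20.9% (EPC_Late against EPC_acLDL) of all probes.

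Between EPC_Late and EPC_acLDL, Tpm3 fell by 0.65 (SE 0.13, limma adjusted p = 0.016), a 1.57-fold lower mean. For Tpm2 and Mylk this comparison uses the EPC_acLDL arrays on which both were chosen for their low signal, so their values are a description without p-values. The brighter Mylk probe was at 0.51 in EPC_Late against EPC_acLDL (SE 0.12), between its levels in EPC_acLDL and EPC. Tpm2 was at 0.33 (SE 0.22), and in deposited intensity its EPC_Late arrays lay within the EPC_acLDL range. The dimmer Mylk probe was above background in neither line, and Acta2 was at -0.22 (limma adjusted p = 0.35).

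The Tpm3 call was lost without the first EPC_acLDL array, the second EPC_acLDL array or the second EPC_Late array (limma adjusted p = 0.098, 0.076 and 0.084). Of the 5 member probes, 1 was past the threshold as lower (Tpm3), against 11.5% of all probes tested, and 1 as higher (the brighter Mylk probe, from which nothing is read), against 9.34%, with 20.9% of all probes in either direction. The median of the 5 differences was 0.33, against 0.00 over all probes tested. On the normalized scale the lines did not overlap for 5 of 5, against 58.6% of all probes, but in deposited intensity the arrays of Tpm2, Acta2 and the dimmer Mylk probe overlapped.

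**Figure D3:**
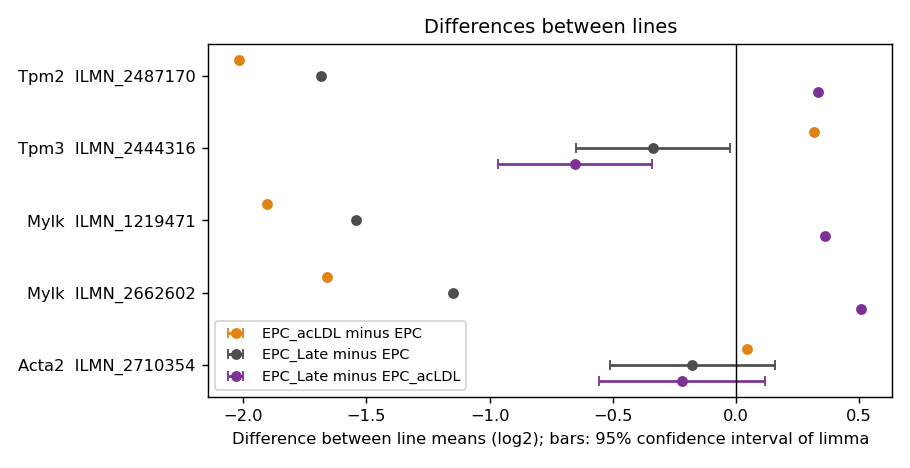
Differences between line means (log2) of the 5 tested contractile gene probes for the 3 comparisons. The 95% confidence interval of limma is drawn for Tpm3 and Acta2 in the comparisons with EPC_Late, where the Acta2 intervals include 0; the Tpm2 and Mylk points and all of EPC_acLDL minus EPC are drawn without one because they use arrays on which Tpm2 and Mylk were chosen, and the dimmer Mylk probe is below background in EPC_acLDL and EPC_Late.

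**Figure D4:**
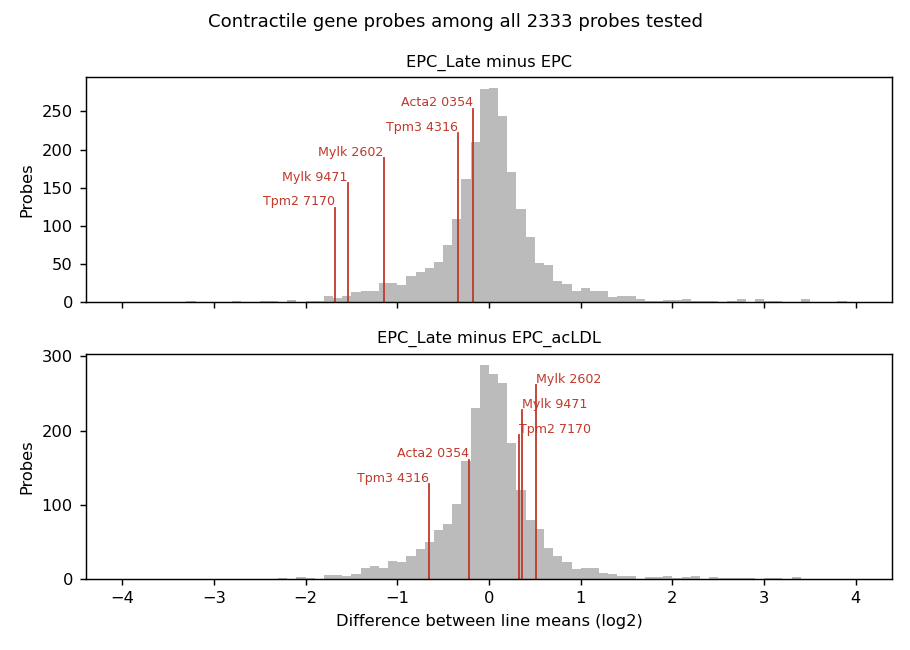
Histogram of the log2 difference of all 2333 probes tested for EPC_Late against EPC (top) and against EPC_acLDL (bottom), with red lines at the 5 contractile gene probes, labelled by the last digits of the probe. In the top panel Tpm2 (-1.68) and the brighter Mylk probe (-1.15) lie in the lower tail, and the dimmer Mylk probe (left of it) is drawn from EPC_Late values below background, and in the bottom panel the 5 lie between -0.65 and 0.51.

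The genes whose profile over the 6 arrays was most like that of Tpm2 were found by the root mean square difference of log2 signals, each centred on its own mean. The nearest probes were the dimmer and the brighter Mylk probe (0.14 and 0.28), then the activin-binding protein Fst (0.31), the actin-binding protein Dbn1 (0.36) and the phosphatase subunit Ppp2r2b (0.38), against a median of 0.93 over 2332 probes. The nearest to the brighter Mylk probe were Dbn1 (0.23), the unnamed gene model LOC100048046 (0.27), Tpm2 (0.28), Ppp2r2b (0.30) and the cytoskeletal linker Dst (0.30), against a median of 0.73 over 2331 probes. These distances are a description: 4 of the 6 values of the dimmer Mylk probe are below background, Dbn1 and LOC100048046 were above background on 3 and 2 arrays, and Tpm2 and Mylk were chosen for the same comparison on 4 of the arrays.

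Among the genes that control myosin phosphorylation, 14 of 18 had a probe and 5 of 25 probes were tested. Ppp1cb, the catalytic subunit shared by myosin phosphatase and other phosphatase complexes, had its lowest signal in EPC. Its brighter probe (ILMN_2647628) read 479.3 and 500.6 in EPC, 994.0 and 1030.1 in EPC_acLDL, and 1291.1 and 1271.3 in EPC_Late. The lines did not overlap, and EPC was the lowest, with a dim signal there (detection p 0.0125 and 0.0150). The log2 signal rose by 2.48 from EPC to EPC_Late (SE 0.11, limma adjusted p = 6.4e-05) and was 0.66 higher in EPC_Late than in EPC_acLDL (adjusted p = 0.0083). The call against EPC_acLDL was lost under 2 of 17 alternative settings. With no background correction the rise from EPC to EPC_Late was 1.36, still past the threshold (limma adjusted p = 9.2e-08).

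The other measured Ppp1cb probe (ILMN_2647627) read 446.6 and 489.7 in EPC, 825.1 and 927.9 in EPC_acLDL, and 884.4 and 1071.4 in EPC_Late. It rose by 2.02 from EPC to EPC_Late (limma adjusted p = 0.00072; 0.96 with no background correction), and the 0.30 between EPC_Late and EPC_acLDL did not pass (adjusted p = 0.31). From EPC to EPC_acLDL the probes were 1.83 and 1.71 higher, in the comparison that chose Tpm2 and Mylk. A further Ppp1cb probe was not above background on any array. The other tested probes of this list, 2 of the GTPase Rhoc and 1 of the calmodulin gene Calm3, did not pass in any comparison. For the list, 2 of 5 probes were higher in EPC_Late than in EPC (10.9% of all probes were) and 0 lower, with a median of 0.11.

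Among the structural partners of actin and myosin, 18 of 21 genes had a probe and 8 of 30 probes were tested, of Actb, Actn1, Actn4 and the regulatory light chain Myl12b. Of the 8, 4 were lower in EPC_Late than in EPC (13.0% of all probes were) and 0 higher, with a median of -0.57, and 5 were lower than in EPC_acLDL (11.5% of all probes), with a median of -0.60. Between EPC_acLDL and EPC 0 of 8 passed in limma, against 3.30% of all probes in either direction.

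Actn1 and Actn4 encode the non-muscle alpha-actinins, which crosslink actin filaments. Actn1 read 4624.9 and 4573.0 in EPC, 4026.2 and 3939.4 in EPC_acLDL, and 2596.6 and 2523.2 in EPC_Late, and it fell from EPC to EPC_Late (log2 difference with 95% confidence interval -1.26 to -0.74, limma adjusted p = 0.0014). The brighter Actn4 probe read 6004.5 and 5757.1 in EPC, 5741.2 and 5129.1 in EPC_acLDL, and 3010.1 and 3063.5 in EPC_Late, and it fell by 1.15 (limma adjusted p = 0.0010). EPC_Late was the lowest line for both, without overlap. The dimmer Actn4 probe was at -0.19 against EPC (adjusted p = 0.30, limma) and fell by 0.62 against EPC_acLDL (adjusted p = 0.012), so the Actn4 probes disagreed against EPC. The call of the dimmer probe against EPC_acLDL was lost under 5 of 17 alternative settings.

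Actb, cytoplasmic beta-actin, had 3 tested probes. One (ILMN_2588055) read 3643.0 and 3856.0 in EPC, 5008.4 and 5744.7 in EPC_acLDL, and 2033.0 and 2265.4 in EPC_Late, and fell by 0.94 from EPC to EPC_Late (limma adjusted p = 0.0036). A second (ILMN_2846865) also fell (log2 difference with 95% confidence interval -1.36 to -0.64, limma adjusted p = 0.0042). Against EPC_acLDL both fell by 1.26. The third (ILMN_2698799) stood at 68150.9 to 70615.9, where at most 10 probes of an array were brighter and the array maxima were 70722.6 to 71993.2, so it lay near the top of the intensity scale in all lines and its differences are not read. Both tested Myl12b probes, of the light chain that Mylk phosphorylates in non-muscle cells, did not pass in any comparison, with differences of 0.04 and -0.12 between EPC_Late and EPC.

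Among Srf, its cofactors and genes under their control, all 19 genes had a probe and 4 of 31 probes were tested. Of the 4, 2 (Srf and Egr1) were past the threshold as lower in EPC_Late, against EPC (13.0% of all probes) and against EPC_acLDL (11.5%), and 0 as higher. Of these 2 only Srf is read, because the filter kept Egr1 through EPC alone. The medians, which include Egr1, were -0.38 against EPC and -0.26 against EPC_acLDL. Between EPC_acLDL and EPC 0 passed in limma, against 3.30% of all probes in either direction. Srf, whose promoter with 2 exact CArG boxes is printed above, read 953.5 and 916.5 in EPC, 890.9 and 903.8 in EPC_acLDL, and 685.2 and 643.7 in EPC_Late. Both EPC_Late arrays were below the other 4, and the signal fell by 1.10 against EPC (SE 0.14, limma adjusted p = 0.0024). Egr1, an immediate early gene under Srf, was above background on both EPC arrays alone, so the filter kept it through the line where it is high and its values are a description. Its signal was at least 1.37-fold lower in EPC_Late than in EPC, and the difference was -0.55 with no background correction. Against EPC_acLDL neither line was above background, so its count there rests on no measured level. The LIM protein gene Csrp2 and the AP-1 gene Junb did not pass.

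**Figure D5:**
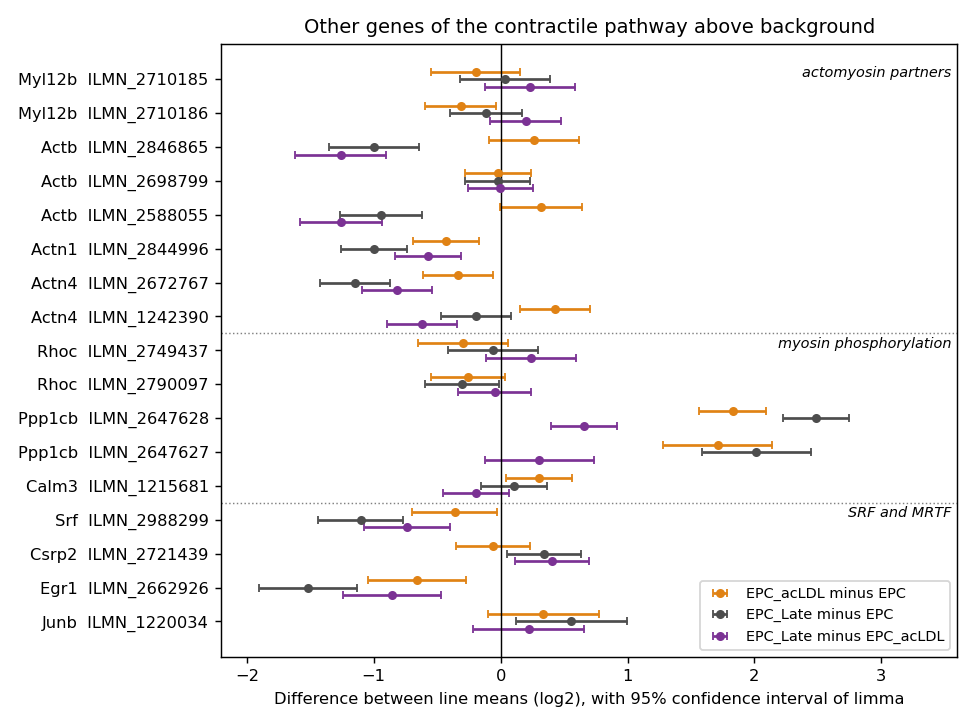
Differences between line means (log2) with the 95% confidence interval of limma for the 17 tested probes of the other contractile pathway genes, by list, in the 3 comparisons. The Ppp1cb points lie furthest to the right in both comparisons with EPC. The EPC_Late points of Actn1, both tested Actn4 probes, Srf and 2 Actb probes lie to the left of 0. Egr1 was above background in EPC alone, so its points and intervals use values below background and are not read. The points of the Actb probe ILMN_2698799, near the top of the intensity scale, are not read either.

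The number of pathway calls depended on single arrays, and so did that of all probes. In both comparisons with EPC_acLDL, fewer pathway probes and fewer of all probes were called without either EPC_acLDL array. A line then keeps 1 array, so only effect sizes are given. Between EPC_Late and EPC_acLDL, 8 of 17 pathway probes were called, against 20.9% of all probes, of which 1 is Egr1 with no measured level in either line. With 1 array left out, the difference ranged from -0.59 to -0.54 for Actn1 and from -0.88 to -0.59 for Srf. Between EPC_acLDL and EPC, the 2 called Ppp1cb probes ranged from 1.79 to 1.87 and from 1.56 to 1.86.

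Markers of other cell types were read in the same arrays. Of 11 fibroblast probes, 2 were tested and 1 was higher in EPC_Late than in EPC (10.9% of all probes were; Col1a2, 0.43, limma adjusted p = 0.047), with summed list intensities of 3594 to 3891 in EPC, 3653 to 4078 in EPC_acLDL and 4010 to 4265 in EPC_Late. Most of the 11 probes were at background, and the median intensity of the arrays was 311.0 and 342.4 in EPC, 304.6 and 345.2 in EPC_acLDL, and 336.6 and 358.7 in EPC_Late, so these sums also carry the background of each array. The smooth muscle and pericyte list summed to 6679 to 7072, 6563 to 7416 and 7281 to 7581 in the same order, with Tagln, Cnn1 and Myh11 not above background on any array. Of the 8 epithelial, 15 blood cell and 21 striated muscle probes, 2, 0 and 1 were tested, and 0 passed in limma in any comparison, as for Kdr. Of all probes tested, 3.30% (EPC_acLDL against EPC), 23.9% (EPC_Late against EPC) and 20.9% (EPC_Late against EPC_acLDL) passed. The part of other cell types in the contractile gene differences was not tested.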

How the data were processed

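Total RNA of 6 samples from 3 lines was measured on MouseRef-8 bead arrays. The authors averaged the beads of each probe in BeadStudio, whose local background correction was on, and deposited the resulting intensity of each probe and array, not normalized, together with its detection p-value. The genome build behind the array annotation is not given in the sources used here. Groups were taken from the sample titles.

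The tools were R 4.3.3 and limma 3.58.1. Intensities went through neqc (background from the detection p-values, offset of 16, quantile normalization, log2), a filter that kept the 2333 of 25697 probes detected (p below 0.05) on both arrays of 1 line or more, and 1 fit of all 6 arrays with lmFit and eBayes, without covariates. P-values were adjusted by Benjamini-Hochberg over the 2333 probes at a threshold of 0.05. Where neither array of a line was above background, the fold is a bound, for which each dim array takes its own probe signal or, if that is lower, the weakest signal that counted as above background there. The steps were tested on simulated data. The members, the pathway and marker lists, and the rule for named genes (every member probe, the pathway probes past the threshold with at most 5 of largest size per list and comparison, and the 5 nearest profiles) were chosen with earlier results of these data known; tested pathway and marker probes that did not pass are named to complete their lists. Probe sequences were not used here, so whether probes of near-identical genes, such as the actins, detect each other's transcripts was not tested. Promoters and gene names were taken from RefSeq tables. With 2 arrays per line, their number limits the precision. The alternatives were other background corrections, normalizations and filters, a replicate block, limma-trend, the 4 arrays of 2 lines, each array left out, and the methods' t-test.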

Additional observations from a re-analysis of the deposited data

How the results depend on the processing

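No direction of a called difference reversed. Of 252 recomputed differences of member probes, 219 kept their side of the threshold or moved by less than the replicate spread, 15 were no longer past it, 4 newly were, and 14 that carry no test moved further. Of 456 for pathway probes, the first 3 numbers were 400, 35 and 21. With Benjamini-Hochberg adjustment, the methods' t-test gave 0, 0 and 0 member calls for EPC_acLDL against EPC, EPC_Late against EPC and EPC_Late against EPC_acLDL (3, 3 and 2 in the report), and 0, 1 and 0 pathway calls (2, 8 and 8). Apart from Tpm3 in the last comparison, these member calls are of Tpm2 and Mylk, on arrays that chose them. Throughout this section their counts are a description, and nothing is read from their stability. Each 8 includes Egr1, which the filter kept through EPC alone. For EPC_Late against EPC_acLDL, member calls were 1 with the 75th percentile shift, 1 with no normalization and 1 with no filter. For EPC_acLDL against EPC, pathway calls were 4 with an offset of 50, 8 with no background correction, 5 with no normalization, 4 with the stricter filter (detection p below 0.01), 9 with limma-trend and 8 with the unadjusted methods' t-test. Leaving out each array in turn gave 1 to 3 (1 without EPC_acLDL replicate 1), 3 to 3 and 0 to 2 member calls, and 1 to 2, 8 to 8 and 3 to 8 pathway calls, in the same order. The cause was not tested.

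The replicate number as a block left 3, 3 and 2 member calls and 2, 8 and 8 pathway calls. The deviations of same-numbered arrays correlated at 0.08, 0.02 and 0.03, so no pairing by number was seen in the normalized values. Quantile normalization removes shifts of a whole array, so these correlations cannot decide whether same-numbered arrays share an experiment. Without background correction, which leaves a floor under dim probes, Tpm2 was at -0.92 in EPC_acLDL and -0.81 in EPC_Late against EPC (-2.02 and -1.68 in the report), the dimmer Mylk probe at -0.66 and -0.53, below its stated bounds, Egr1 at -0.55, Srf at -0.63 and the Ppp1cb probes at 1.36 and 0.96 in EPC_Late against EPC. Over all probes, calls for EPC_acLDL against EPC were 77, and 9 to 36 without 1 array, 43 with the block, 35 with 4 arrays, 50 with no filter, and 138 to 285 under the other scalings, background corrections, filter and limma-trend. For the other comparisons, calls ranged from 370 to 693 (557) and from 203 to 631 (487). The methods' t-test gave 1, 15 and 11 calls adjusted and 355, 585 and 568 unadjusted. With the 75th percentile shift the median of all probes moved to 0.16 and -0.15 in the comparisons with EPC_acLDL, and with no normalization to 0.25 and -0.16; the share of calls that were higher then went from 58.4% to 82.6% and 91.6% for EPC_acLDL against EPC, and from 44.8% to 26.1% and 24.5% for EPC_Late against EPC_acLDL. Relative to that shift, the Tpm2 and Mylk differences kept their sign. Signal near background limits the precision for Tpm2, Acta2, the dimmer Mylk probe and, in EPC, the Ppp1cb probes.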
